A study of Gallus gallus with 9 samples.

Results

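In the chick dorsal mesentery, 101 genes had a level in the middle of intestinal looping within 1.5 times of that at its start. All of these genes had fallen at least 3 times when looping was complete. They were found by a rule on stage means among 24356 genes counted in 9 libraries of poly(A) RNA. The embryos were wild-type White Leghorn at embryonic day 8, 12 or 16 (E8, E12, E16), with 3 libraries at each stage and tissue of 3 embryos pooled in each library. Per the labels' protocols, the intestinal tube and the superior mesenteric artery had been cut away from the membrane before it was frozen. Levels are counts per mega-read of gene reads (CPM) after scaling by trimmed mean of M-values (TMM). The labels give no treatment, and the groups are defined by stage.

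The members were chosen from these same values, so their stage levels are a description and carry no test. A gene had to reach 1 CPM in at least 3 of the 9 libraries, which 14172 genes did. Of those, 9962 had an E8 mean of at least 10 CPM, and 5986 of these also had an E12 mean within 1.5 times of the E8 mean in either direction. These 5986 are called held genes here. The final condition, an E16 mean at least 3 times below the E12 mean, left the 101 members, or 1.69% of the held genes.

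The dorsal mesentery is the fold of connective tissue that tethers the gut tube to the body wall and carries its vessels, nerves and lymphatics. As the tube outgrows the membrane, the pull of the mesentery buckles the tube into regular loops. The growth and stiffness of the membrane thus help to set the shape of the loops. The members' transcripts were present through the start and the middle of looping and lower at its end. Whether they have any part in looping was not tested. The deposited table names genes by Ensembl ID alone, and 0 of its 24356 IDs matched the table of 25635 chicken genes used here. The members are therefore described by level and time course, without gene names, functions or sequences, and the cell types of the tissue were not checked against markers.

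The 101 members were transcripts of low to moderate abundance with a few abundant ones among them. Their E12 means ran from 9.4 to 2950 CPM with a median of 55.0 CPM, and their E8 means from 11.7 to 2290 CPM with a median of 58.4 CPM. At E16 the means ran from 0.702 to 839 CPM with a median of 12.6 CPM. By then 19 members had a mean under 5 CPM, 76 lay from 5 to under 100 CPM, and 6 still stood at 100 CPM or more. Only 1 member had a mean under 1 CPM at E16, so nearly all were reduced rather than gone.

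Summed over the members, the level was 13841, 12388 and 14144 CPM in the E8 libraries of replicates 1, 2 and 3. It was 12673, 16037 and 16184 CPM at E12, and 3417, 4124 and 3744 CPM at E16. The E8 and E12 values overlapped, and every E16 library lay far below both. As a plain share of gene reads, without TMM scaling, the members made up 1.48% ± 0.0819 in the E8 libraries, 1.38% ± 0.104 in the E12 libraries and 0.367% ± 0.0364 in the E16 libraries (SD, n = 3 each). The order of E8 and E12 thus differs between the scales, by less than the E12 libraries differ among themselves, and the fall to E16 is seen on both. A few genes made up much of these sums. The most abundant member alone gave 19.7% of the E12 sum, and the 10 most abundant gave 52.3% at E12 and 51.8% at E16. Without the most abundant member, the ratio of the E12 sum to the E16 sum was 4.11, against 3.98 with it.

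**Figure D1:**
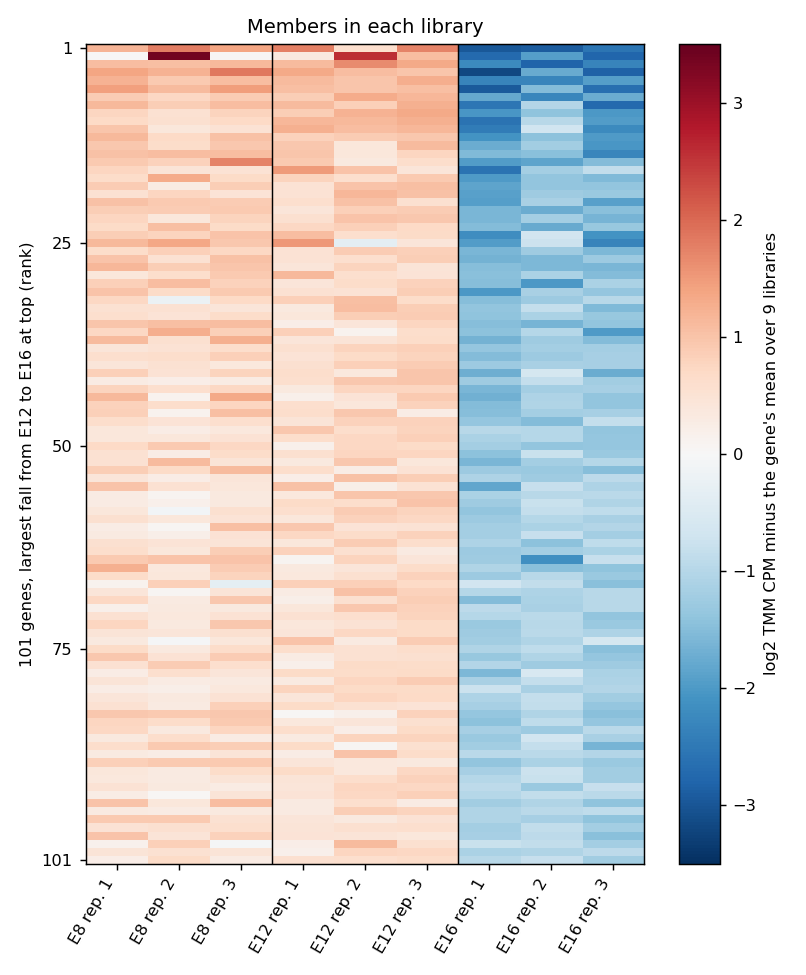
Each row is 1 of the 101 members and each column 1 library, ordered by stage and replicate; rows are sorted by the fall from E12 to E16, with the largest fall at the top. The colour is the log2 TMM CPM minus the gene's own mean over the 9 libraries, red above and blue below; the E8 and E12 columns are mostly red and the E16 columns blue, with E16 replicate 2 paler in some of the upper rows.

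The size of the fall was uneven, with most members close to the condition that chose them. The ratio of the E12 to the E16 mean ran from 3.01 to 19.1, with a median of 3.57 and quartiles of 3.23 and 4.64. It was under 3.5 in 47 members and from 3.5 to under 4 in 20. A further 13 members fell 4 to under 5 times, 17 fell 5 to under 10 times, and 4 fell at least 10 times. The member just inside the condition had 26.9 CPM at E12 and 8.95 CPM at E16, a ratio of 3.006. The held gene just outside it had 33.5 CPM and 11.2 CPM, a ratio of 2.99. In all, 50 held genes had ratios from 2.7 to under 3, so the lower edge of the set runs on without a gap into genes that fell slightly less.

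Falls of this size were uncommon among held genes in either direction. Of the 5986, 5248 (87.7%) had an E16 mean within 2 times of the E12 mean, and the median ratio of E12 to E16 was 1.16. Another 446 fell 2 to under 3 times. In the other direction, 147 rose 2 to under 3 times and 44 rose at least 3 times by E16.

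**Figure D2:**
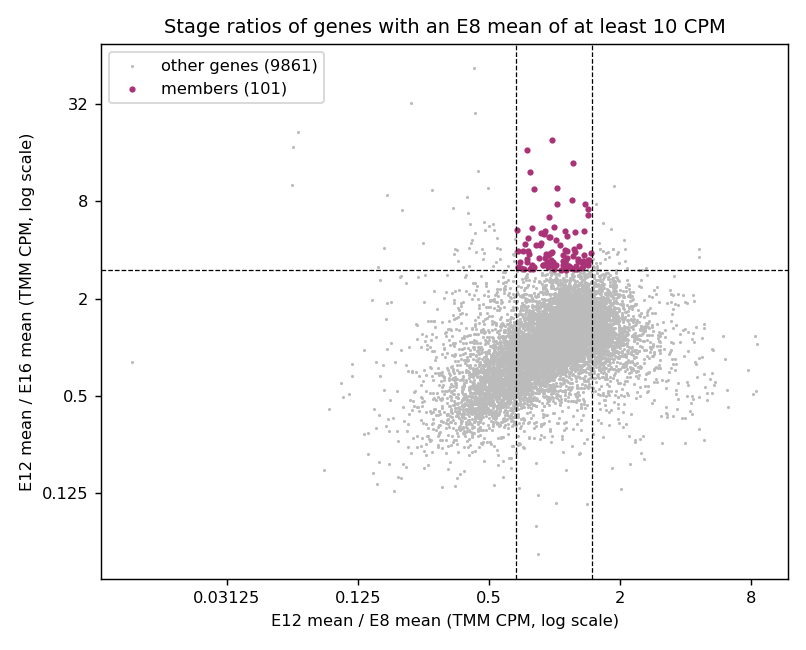
Each point is 1 of 9962 genes with an E8 mean of at least 10 CPM, placed by the ratio of its E12 mean to its E8 mean and by the ratio of its E12 mean to its E16 mean, both of TMM CPM on log scales. Dashed lines mark the conditions of the rule (1.5 times either way across, 3 times upward); the 101 members fill the upper middle field, densest just above the line, and reach a ratio of 19.1.

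The member with the highest level was ENSGALG00000041471. Its level was 2360, 2127 and 2387 CPM in E8 replicates 1, 2 and 3, then 2081, 3586 and 3198 CPM at E12, and 827, 746 and 944 CPM at E16. At E12, replicate 1 lay below all 3 E8 libraries and replicates 2 and 3 lay well above them, while the E16 libraries stood apart from both earlier stages. From E8 to E12, edgeR gave a log2 fold change of 0.38 (SE 0.18), and from E12 to E16 one of -1.83 (SE 0.19). The E16 libraries still held 18963 to 20818 reads of this gene, so counting error is negligible beside the spread between pools. The next member in level had 1426, 1117 and 1450 CPM at E8, 1245, 1677 and 1634 CPM at E12, and 279, 374 and 274 CPM at E16. It fell further than the first, to 20.4% of its E12 mean against 28.4%.

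The largest fall was that of ENSGALG00000005467, from 91.0 CPM ± 35.8 at E12 to 4.76 CPM ± 0.751 at E16 (SD, n = 3 each). Its level was 76.4, 114 and 87.4 CPM in E8 replicates 1, 2 and 3, then 113, 49.7 and 110 CPM at E12, and 4.23, 4.44 and 5.62 CPM at E16. Replicate 2 was thus the highest library at E8 and the lowest at E12, while the E16 libraries were close together. On the log2 scale the change was -0.01 (SE 0.26) before E12 and -4.27 (SE 0.31) after it, and 5.24% of the E12 level was left.

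The second-largest ratio, 16.7, rested on few libraries. That member had 3.80, 39.4 and 3.84 CPM at E8, 4.78, 22.4 and 7.96 CPM at E12, and 0.567, 0.995 and 0.544 CPM at E16. Replicate 2 was the highest library at every stage, and at E8 it stood far above the other libraries. With E8 replicate 2 left out, its E8 mean would be under 10 CPM, and the gene would no longer be a member. Its E16 levels correspond to 13, 26 and 12 reads, the lowest counts of any member.

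**Figure D3:**
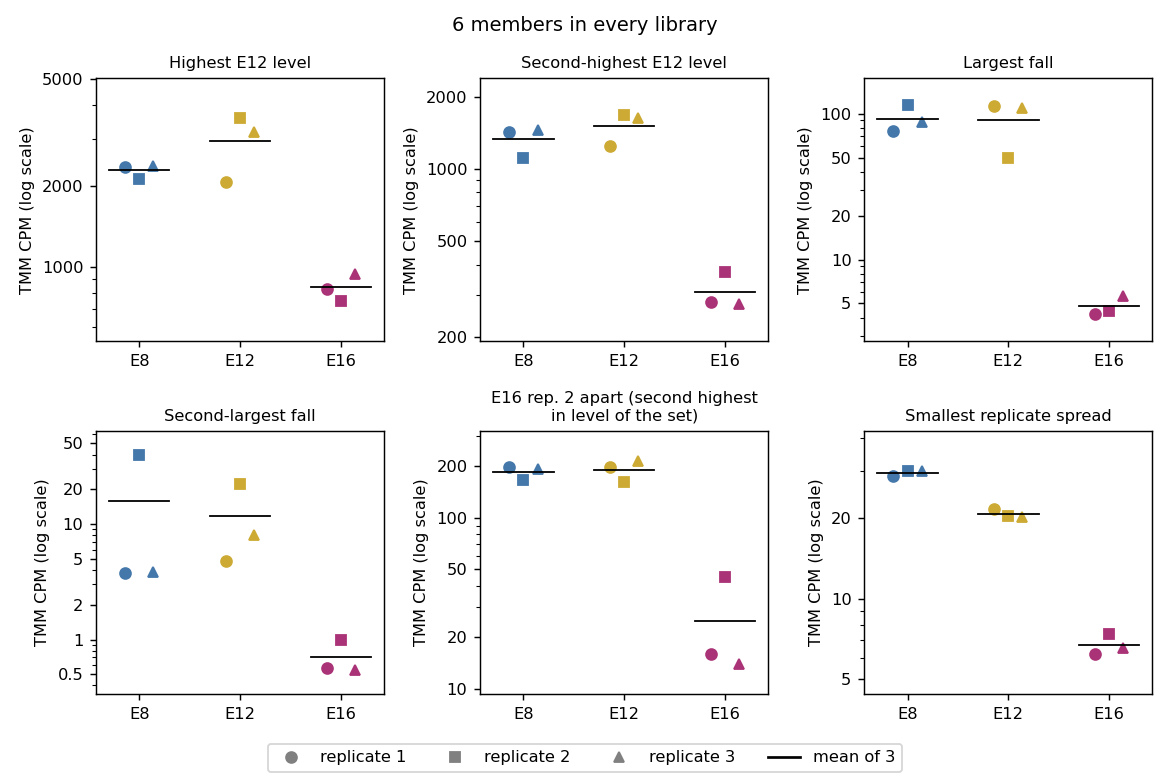
TMM CPM on a log scale in every library for 6 members, with symbols for the replicate, colours for the stage and a line at the mean of the 3 libraries. The 2 most abundant members show E12 replicate 1 below replicates 2 and 3; the member with the second-largest fall shows replicate 2 high at every stage (39.4 CPM at E8); the fifth panel shows E16 replicate 2 at 44.9 CPM above the other E16 libraries; and the last shows the member with the smallest spread.

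Other members were measured far more evenly. The one with the smallest spread over replicates had 28.8, 30 and 30.1 CPM at E8, 21.6, 20.5 and 20.3 CPM at E12, and 6.2, 7.38 and 6.53 CPM at E16. Its 3 stages were separate, with a small step down before E12 and a larger one after it. For the whole set, the median coefficient of variation between replicates was 11.3% at E8, 14.7% at E12 and 16.3% at E16. Among all held genes it was 7.11%, 11.9% and 9.24%, so the members' replicates differed more than those of the typical held gene at each stage. No test was made of that difference, and the sets were not matched for level, which the rule lowers in the members at E16.

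In spite of this spread, E16 was separate from both earlier stages in every member. The highest E16 library lay below the lowest E12 library in 101 of 101 members, against 28.8% of all 15506 genes tested. It also lay below the lowest E8 library in 101 of 101, against 34.5% of genes. The lowest E12 value was a median of 2.64 times the highest E16 value, and at least 2 times in 94 members. The smallest such gap was 1.31 times. The condition of a fall of at least 3 times in the means favours wide gaps of this kind. With edgeR's quasi-likelihood test across all genes, 101 members were called lower at E16 than at E12 (26.6% of all genes tested), and 101 lower at E16 than at E8 (26.4%). These contrasts chose the members, so the counts describe the set and are no evidence for it.

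The hold from E8 to E12 was not equally flat in all members. The E12 mean was above the E8 mean in 52 members and below it in 49, and it lay between 20% below and 25% above the E8 mean in 58. The 3 E8 values and the 3 E12 values did not overlap in 27 members, as in 60.3% of all genes tested. The split is relative to TMM scaling, under which the median log2 change of all tested genes from E8 to E12 was -0.03. With total counts alone that median was -0.29, and the members' median moved from 0.04 to -0.22. Between E8 and E12, 12 members were called higher (25.7% of all genes tested were) and 4 were called lower (26.5%). With total counts alone, 0 members were called higher (14.8% of all genes were) and 20 lower (36.6%), so the direction of these small changes depends on the scaling. The band of the rule also limits how many members could be called here.

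The members called higher at E12 ranged in E12 mean from 16.2 to 381 CPM, and their E12 level was at most 1.48 times that at E8. One of them was also among the larger falls, with 287, 246 and 290 CPM at E8, 313, 393 and 430 CPM at E12, and 41.4, 64.4 and 42.2 CPM at E16. The 4 called lower had between 0.684 and 0.738 of their E8 level at E12 and 3.11 to 4.34 times less again at E16.

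Under TMM scaling, members that were above their E8 level at E12 tended to be those with the higher E12 levels. The E12 mean exceeded the E8 mean in 10 of 13 members with an E12 mean of 300 CPM or more and in 13 of 20 with 100 to under 300 CPM. It did so in 14 of 33 members with 30 to under 100 CPM and in 15 of 35 with under 30 CPM. Taken against the E8 level instead, the Spearman correlation with the ratio of E12 to E8 was 0.16 over the 101 genes, against 0.34 with the E12 level, a value that both measures share. The fall differed little by abundance, with a median ratio of E12 to E16 of 3.41, 3.68, 3.79 and 3.77 from the lowest to the highest of these 4 classes.

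The E12 libraries differed from each other in the members. Replicate 1 was the lowest E12 library in 58 members, or 57.4%, and in 44.0% of held genes. Its level was a median of 0.873 times the mean of replicates 2 and 3 in the members, and 0.987 times in held genes. E12 replicate 1 alone was at least 2 times the E16 mean in 101 members and at least 3 times in 69. Both levels had served in choosing the members, so these counts are a description. Of 95 genes chosen without that library, 63.2% reached 3 times the E16 mean in it. Reads outside every annotated feature made up 16.6%, 11.0% and 13.5% of all reads in E12 replicates 1, 2 and 3, against 18.3% to 20.4% in the libraries of the other stages. The part of this difference in the members' levels was not tested directly. With that share as a covariate, 96 of the 101 members were called lower at E16 than at E12, as were 9.11% of all genes tested. The members' median log2 change from E12 to E16 was -1.77 with the covariate and -1.85 without it. For ENSGALG00000041471 the change was -1.01 with it and -1.83 without it, and for ENSGALG00000005467 -5.07 and -4.27. This contrast chose the members, so their count is a description and no evidence. Between E8 and E12 with the covariate, 0 members were called in either direction, where 3.29% of all genes were. The members' median log2 change from E8 to E12 was -0.15 with the covariate and 0.04 without it. For ENSGALG00000041471 the change was -0.54 with it and 0.38 without it, and for ENSGALG00000005467 0.90 and -0.01. The share was lower in every E12 library than in any library of the other stages. The covariate thus overlaps with stage, and their parts cannot be told apart.

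Among the E16 libraries, replicate 2 had the highest level of 59 members, or 58.4%, and of 38.3% of held genes. In 7 members it was at least 2 times as high as both other E16 libraries. Only 10 of the 5986 held genes (0.167%) met that description, and 7 of the 10 were members. No member stood so far above in E16 replicate 1 or 3. Within the earlier stages, 1 member stood so far above in each of E8 replicate 2, E12 replicate 1 and E12 replicate 2. Among held genes, 31, 11 and 2 did so in those libraries. At a milder limit of 1.5 times, E16 replicate 2 stood above both others in 11 members (10.9%) and 68 held genes (1.14%). Most held genes with this milder excess were thus not members. The 7 members at 2 times were picked out after their values were seen, and they include some of the largest falls, with ratios of E12 to E16 from 3.81 to 12.2.

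The most abundant of the 7 had 825, 663 and 794 CPM at E8, 712, 601 and 901 CPM at E12, and 142, 301 and 138 CPM at E16. Another had 198, 167 and 192 CPM at E8, 198, 162 and 215 CPM at E12, and 15.9, 44.9 and 13.9 CPM at E16. One more had 127, 85.7 and 91.7 CPM at E8, 153, 138 and 144 CPM at E12, and 11.9, 40.2 and 13.8 CPM at E16. In each, E16 replicates 1 and 3 were close together and replicate 2 stood between them and the E12 libraries. In 6 of the 7, E8 replicate 2 was the lowest of its stage, as it was in 63.4% of all members and 48.5% of held genes. Without E16 replicate 2, the ratios of E12 to E16 in the 7 genes were 5.27 to 17.6. Which process or cell type these genes belong to was not examined, because the IDs did not match the gene table used here.

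Chosen genes were also read in a library that had not served in choosing them. Each library was left out in turn, and the genes were chosen from the other 8 by the same rule. Held genes were chosen anew from the same 8 libraries, which gave 5034 to 6558 of them. Of 95, 121 and 96 genes chosen without E16 replicate 1, 2 or 3, the E12 mean was at least 3 times the left-out E16 library in 87.4%, 54.5% and 81.2%. Among all held genes, which include the chosen ones, it was so in 2.16%, 1.66% and 2.07%. That low share restates that few held genes (1.69%) met the fall in the stage means, and it is no test. At 2 times, the share was 100%, 95.0% and 100% of the chosen genes and 9.38% to 10.8% of held genes. Many chosen genes thus fell short of 3 times in E16 replicate 2, and nearly all of them still fell 2 times. The E12 mean had served in choosing these genes, so only the left-out E16 library is independent of the choice.

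With an E12 library left out, 95, 103 and 93 genes were chosen without replicate 1, 2 or 3, and the left-out library was at least 3 times the E16 mean in 63.2%, 83.5% and 90.3% of them. It was within 1.5 times of the E8 mean in 83.2%, 76.7% and 83.9%, against 95.8%, 72.7% and 79.0% of held genes. The lowest ratio in a left-out E12 library was 0.751, in 1 gene chosen without replicate 3. With an E8 library left out, 60.8% to 79.6% of the 97 or 98 chosen genes were at least 3 times the E16 mean in it, and 92.8% to 99.0% at least 2 times. The rule sets no limit of 3 times on E8 over E16, and that ratio of means was as low as 2.27 among the members. The E12 mean was within 1.5 times of the left-out E8 library in 90.8%, 81.4% and 83.7% of the chosen genes for replicates 1, 2 and 3, against 92.2%, 88.5% and 88.1% of held genes. The E16 mean had served in choosing these genes in both cases, so only the left-out library is independent of the choice.

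**Figure D4:**
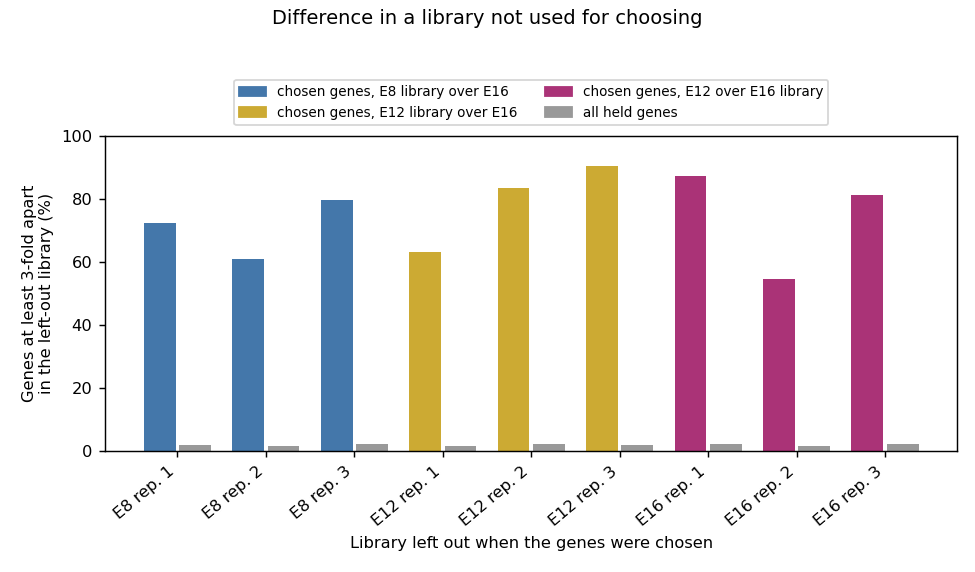
For each library left out when the genes were chosen, the coloured bar gives the percentage of the chosen genes that differed at least 3 times in that library from the mean of the stage it is compared with, and the grey bar the same for all held genes. Chosen genes reached 54.5% to 90.3%, lowest with E16 replicate 2 left out, and held genes stayed between 1.57% and 2.29%. The rule sets a limit of 3 times on E12 over E16 and none on E8 over E16.

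Membership itself rested on single libraries in some genes and not in others. Of the 101 members, 54 were chosen in all 9 of these lists, 18 were missing from 1 list, and 29 were missing from 2 or more. Those in all 9 lists had a median ratio of E12 to E16 of 3.98, and the others 3.24. Of the 34 members that fell at least 4 times, 27 were in all 9 lists. In bulk tissue, fewer cells of a type and less RNA per cell cannot be told apart, and this holds for every fall described here.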

How the data were processed

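The authors deposited a table of raw, unnormalized counts with a row for each Ensembl ID and a column for each of 9 libraries. The submitters' processing notes name HISAT2 2.2.1, HTSeq 0.13.5, cutadapt 3.1, FastQC 0.11.9 and genome build GRCg6a; annotation release and strand setting are not given in the sources used here, so overlapping, antisense and near-identical genes are uncertain. The 5 rows of reads assigned to no gene stayed out of every test. They averaged 17.7% of all reads for reads outside annotated features and 17.0% for the other 4 rows together. Gene counts totalled 22.96 to 30.62 M (mega) per library. Groups came from sample titles, and p-values measure the spread between pools of 3 embryos.

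Members were chosen with TMM factors on genes with at least 1 CPM in 3 libraries. All genes kept by filterByExpr, 15506, were fitted with 3 stage means in edgeR 4.0.16 (R 4.3.3; quasi-likelihood F-test, robust, Benjamini-Hochberg adjusted p under 0.05), and the fit was tested on simulated data. A standard error is the absolute log2 fold change over the square root of F. Alternatives were other size factors and filters, DESeq2 1.42.0, 6-library fits, a replicate block, a covariate and each library left out. The members and lists were chosen with earlier results of these data known. The gene and marker lists and promoter motifs needed symbols or sequences and were not used. Without symbols, the naming rule took the 2 highest members and the 2 largest falls; IDs are printed for the first of each. Other members singled out for spread, for a place near a condition or for E16 replicate 2 are given by values alone.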

Additional observations from a re-analysis of the deposited data

Results flagged for a closer look

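Reads that were not aligned, aligned to several places, of low alignment quality or overlapping more than 1 gene made up 17.0% of all reads on average over the 9 libraries, and none of the comparisons uses them. They lie outside the gene counts, and there are no control libraries to set them against.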

How the results depend on the processing

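The number of members was 82 to 142 under every other scaling, filter, stage summary and remaining limit tried, except that it was 547 with a fall of at least 2 times, 34 with a fall of at least 4 times, and 58 with an E12 mean between 20% below and 25% above that at E8. These 3 limits are looser or stricter by construction. With DESeq2 size factors 98 genes were chosen, 96 of them members, and with total counts alone 88, of which 69 were members. Stage medians gave 114, with 87 members. Leaving out 1 library gave 93 to 121, with 84 to 97 members.

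Over all genes, a covariate for reads lying outside features left 510 calls in E12 against E8 (8092 without it). It left 2604 in E16 against E12 (8297 without it). In E16 against E8 the calls rose to 8457 (7634 without it). The cause was not tested, and because the covariate overlaps with stage, their parts cannot be told apart. Leaving out 1 library gave 6365 to 9322 calls in E12 against E8, 6794 to 9199 in E16 against E12 and 6266 to 8546 in E16 against E8. Members called from E8 to E12 numbered 16, or 15.8%, where 52.2% of all genes tested were called. With 1 library left out, 6 to 32 members were called. There were 32 without E12 replicate 1, 6 without replicate 3, 9 without replicate 2 and 8 without E8 replicate 1. In the same order, these fits called 9322, 6438, 6365 and 6854 of all genes. The band of the rule limits how many members could be called. ENSGALG00000041471 was called higher at E12 only without E12 replicate 1, at a log2 fold change of 0.65. With no filter, 100 members were called lower from E12 to E16, as were 4027 of all genes. With each library left out, it was 100 or 101 members and 3353 to 4485 of all genes. In the main fit, 26.6% of all genes tested were called lower in this contrast. The contrast chose the members, so their counts are a description and no evidence.

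Same-numbered libraries are different pools, and the deviations of their 9 pairs correlated at -0.185 to 0.223, with 3 pairs over 0.1. With the replicate block, 7941, 8100 and 7498 genes were called in E12 against E8, E16 against E12 and E16 against E8, and 17 members from E8 to E12. Depth limits only the lowest members: 20 had fewer than 100 reads in some E16 library.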
